A study of Bos taurus with 8 samples.

Results

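The miR-25, miR-32 and miR-92 seed family was examined in sera and serum exosomes of 4 healthy lactating Holstein cows (Bos taurus). The family was represented by 5 of the 534 bovine miRNAs listed, namely bta-miR-25, bta-miR-32, bta-miR-92a, bta-miR-92b and bta-miR-363. The members were taken by name, as miRNAs known to share a seed, and each was listed with reads in every library. They were selected with earlier results of the same sera and exosome comparison known, so the FDR values given for them describe the data and do not account for that selection.

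The 2 groups were sera and the exosomes isolated from the same sera, with 1 small RNA library per cow in each group, and the labels give no treatment, genotype or time point. Sera RNA was purified directly with a Norgen kit, while exosomes were first isolated from a larger volume of serum and their RNA extracted with an Invitrogen kit, so that effects of the sample type and of the extraction cannot be told apart. The study's methods name no step that removed exosomes from the sera, and the sera libraries could therefore also hold exosomal RNA. No miRNA in the tables marks exosomes as such, and the label of the exosome libraries was not checked by a marker. miRNAs known to be abundant in red cells, leukocytes and platelets had reads in all 8 libraries.

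A miRNA recognizes its target mRNAs mainly through the seed, a short stretch near its 5′ end, and miRNAs with the same seed are known to repress overlapping sets of genes. For this family the known targets include BCL2L11, which promotes cell death. The members are made from different transcripts. In the RefSeq annotation (assembly ARS-UCD2.0, used only for neighbouring genes), MIR25 lay with MIR93 and MIR106B inside MCM7, a DNA replication gene, and MIR32 lay inside TMEM245 with no other miRNA gene within 2000 bases. MIR92B also had no miRNA neighbour within that distance. The mature miR-92a has 2 hairpin genes. MIR92A-1 lay with MIR17, MIR18A, MIR19A, MIR20A and MIR19B (the miR-17-92 cluster, known to promote proliferation), and MIR92A-2 lay with MIR363, MIR19B-2, MIR20B, MIR18B and MIR106A (the related miR-106a-363 cluster). The table gives 1 value for miR-92a, which cannot be divided between the 2 hairpins.

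The deposited values were RPM, the reads of a miRNA scaled to the same total of miRNA reads in every library. Depth ranged from 264769 to 590162 miRNA reads for sera and from 60682 to 157710 for exosomes. A level of 3 reads, taken as the smallest share that can be told from 0, therefore equalled 5.08 to 11.3 RPM for sera but 19.0 to 49.4 RPM for exosomes. The 95% intervals of single libraries (exact Clopper-Pearson) cover counting error only, because PCR reads without molecular identifiers are not independent molecules. RPM is relative, so a lower RPM of a member and a higher RPM of other miRNAs cannot be told apart. In the same way, fewer vesicles or cells of one origin and less of a miRNA in each cannot be told apart.

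The members of the family did not share 1 direction between sera and exosomes. miR-32 was 2.19-fold higher in sera, and miR-92b was 1.86-fold higher in exosomes, both with an FDR under 0.05 in limma. Neither kept that FDR when limma was run with no trend in the spread, a choice made after seeing the values, with 0.0731 for miR-32 and 0.0930 for miR-92b. miR-92a lay higher in the exosomes of 4 of 4 cows, with groups that did not overlap, but its FDR was 0.132. miR-25 and miR-363 overlapped between sera and exosomes, though each was higher in the sera of 4 of 4 cows in RPM. The order of the levels was the same in 8 of 8 libraries, with miR-92a highest, then miR-25, miR-92b, miR-32 and miR-363.

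miR-92a, the member of the miR-17-92 and miR-106a-363 clusters and one of the most abundant miRNAs of these libraries, ranked between place 2 and place 4 in every library. Its level across cows 1 to 4 in sera was 48447.1, 56999.6, 55289.7 and 51737.7 RPM, and in the exosomes it was 61550.4, 89612.6, 98087.6 and 74402.4 RPM. Every exosome library stood above every sera library, and the exosome libraries were spread more widely, with the library of cow 1 nearest to the sera. The level averaged 53119 ± 3808 RPM (SD, n = 4) in sera against 80913 ± 16206 RPM in exosomes. The Log2 FC of sera against exosomes was −0.59 (SE 0.23, 95% interval −1.08 to −0.09), and limma gave an FDR of 0.132. Entering the cow as a replicate block changed this call, to an FDR of 7.3e-05 in limma and 2.3e-10 in edgeR, but in limma with the block and no trend the FDR was 0.120. The spread between the exosome libraries, with a coefficient of variation of 20.0% against 7.17% in sera, was the larger.

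miR-92b, the close relative of miR-92a that lies in no cluster, was higher in exosomes. Its level was 1186.5, 981.1, 1170.8 and 1217.9 RPM across cows 1 to 4 in sera and 1944.6, 2191.0, 2274.5 and 2041.7 RPM in the exosomes. The groups did not overlap, and the exosome libraries agreed within a coefficient of variation of 7.00%. The level averaged 1139 ± 107 RPM (SD, n = 4) in sera against 2113 ± 148 RPM in exosomes. The Log2 FC was −0.89 (SE 0.18, 95% interval −1.28 to −0.51) with an FDR of 0.0107 in limma, so it passed the FDR threshold of 0.05 but not the fold change threshold of 1. miR-92b also moved from places 66 to 77 in sera to places 45 to 54 in exosomes.

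miR-32, whose hairpin gene lies inside TMEM245, was higher in sera. Its level was 703.7, 649.0, 842.2 and 621.3 RPM across cows 1 to 4 in sera and 412.0, 335.3, 253.8 and 291.7 RPM in the exosomes. The groups did not overlap, although cow 3 had the highest level in sera and the lowest in exosomes. The level averaged 704 ± 98.3 RPM (SD, n = 4) in sera against 323 ± 67.9 RPM in exosomes. The Log2 FC was 1.13 (SE 0.24, 95% interval 0.62 to 1.65) with an FDR of 0.0115 in limma, and miR-32 was the member that passed both thresholds. With RPM scaled by the median of ratios the FDR was 0.0627, and relative to miR-93 it was 0.355, again in limma. In exosomes it rested on 25, 43, 26 and 46 reads, and the counting interval in the exosomes of cow 1 reached from 267 to 608 RPM. The upper end of that interval lay under the lowest sera level, 621.3 RPM in cow 4. The counting interval of that sera library began at 550 RPM, so the 2 intervals overlapped.

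miR-25, the member that shares a transcript with miR-93 and miR-106b, overlapped between the sample types. Its level was 14578.3, 21870.3, 15798.7 and 17598.0 RPM across cows 1 to 4 in sera and 12376.0, 18783.3, 14711.2 and 15179.8 RPM in the exosomes. Cow 1 was lowest and cow 2 highest in both sample types, and within each of the 4 cows the sera library was above the exosome library. The level averaged 17461 ± 3190 RPM (SD, n = 4) in sera against 15263 ± 2648 RPM in exosomes. The Log2 FC was 0.19 (SE 0.21, 95% interval −0.25 to 0.64) with an FDR of 0.639 in limma. The difference of the means was smaller than the SD between cows in either sample type, but that SD is no measure of the difference within a cow. With the cow entered as a replicate block, the FDR of miR-25 was 0.233 in limma and 0.476 in limma with no trend.

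miR-363, made from the same transcript as the second miR-92a hairpin, was at the limit of detection in exosomes. It had 5, 25, 11 and 26 reads across cows 1 to 4 in sera and 1, 1, 2 and 8 reads in the exosomes. These reads made 18.7, 42.4, 41.5 and 58.3 RPM in sera and 16.5, 7.8, 19.5 and 50.7 RPM in exosomes. The exosome libraries of cows 1 to 3 were therefore below the level of 3 reads, and the groups overlapped. Within each of the 4 cows the RPM was higher in sera than in exosomes. Over all reads of the 4 libraries, the share in sera was 1.60 times that in exosomes with a counting interval of 0.858 to 3.25, and the Log2 FC of limma was 0.93 (SE 0.75, FDR 0.470). A difference of miR-363 was not detectable at this depth.

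**Figure D1:**
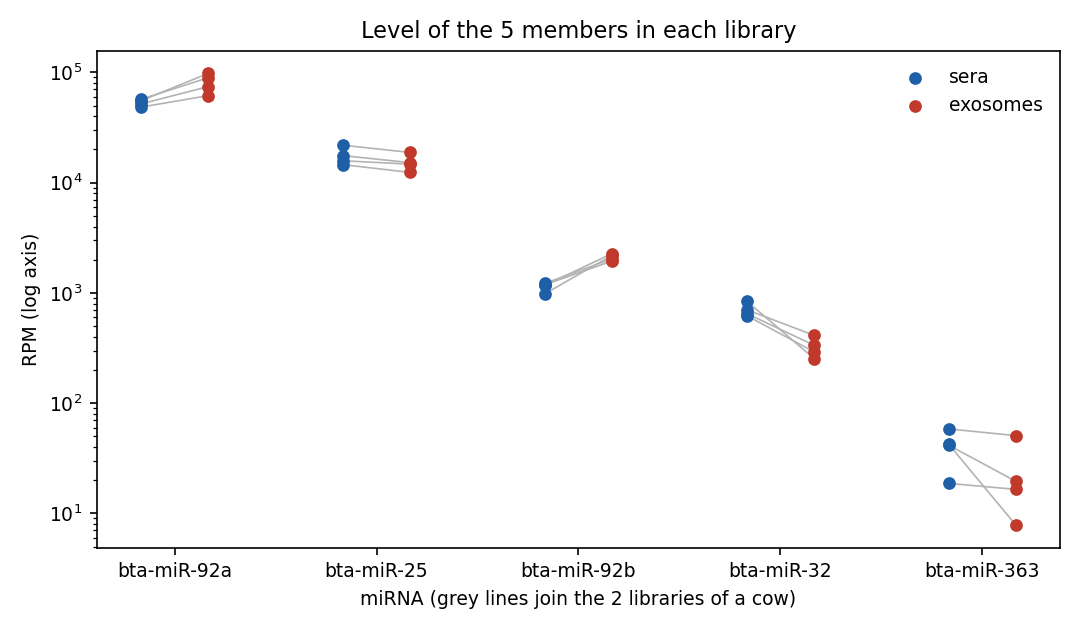
RPM of the 5 members in each library on a log axis, with 4 sera libraries in blue, 4 exosome libraries in red and a grey line joining the 2 libraries of a cow. The lines of miR-92a and miR-92b go up from sera to exosomes in every cow, those of miR-32 go down in every cow, and those of miR-25 go down slightly within overlapping groups. miR-363 lies at 58.3 RPM or lower in every library, and its lines also go down in every cow within overlapping groups.

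Among the 365 expressed miRNAs, defined by more than 1 RPM in at least 2 libraries of either sample type, all 4 sera libraries exceeded all 4 exosome libraries for 11.8% and the reverse held for 2.47%. Of the members, 1 of 5 (miR-32) had all sera libraries above the exosome libraries and 2 of 5 (miR-92a and miR-92b) the reverse. Limma with an FDR under 0.05 called 5.21% of the expressed miRNAs higher in sera and 1.64% higher in exosomes, and with the Log2 FC past 1 as well it called 3.01% and 1.37%. Of the members, 1 of 5 was called higher in sera by either rule, and 1 of 5 (miR-92b) was called higher in exosomes by the FDR alone and 0 of 5 by both thresholds. In the order of fold changes from the highest in exosomes, miR-92b stood at place 23 and miR-92a at place 35 of 365, while miR-25 was at place 125, miR-363 at place 255 and miR-32 at place 280. The median Log2 FC of the 5 members was 0.19, beside 0.57 over all 365 expressed miRNAs and 0.31 over the 128 miRNAs with 10 or more reads in each library.

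The direction of miR-25 depended on the scaling of the libraries. miR-486, a miRNA known to be abundant in red cells, took 129743.3 to 200043.4 RPM of the sera libraries and 173610.0 to 348852.3 RPM of the exosome libraries. With miR-486 removed from the total, the median Log2 FC of the 128 miRNAs moved from 0.31 to 0.11, and that of miR-25 from 0.19 to −0.01. Relative to the median of the 128 miRNAs, the Log2 FC was −0.12 for miR-25, 0.82 for miR-32, −0.90 for miR-92a, −1.20 for miR-92b and 0.62 for miR-363. Under every scaling and test tried, miR-92a and miR-92b stayed on the exosome side and miR-32 and miR-363 on the sera side. miR-25 was on the sera side with RPM as deposited and on the exosome side with RPM relative to miR-93, where its Log2 FC was −0.23.

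On the whole reads recovered from the RPM values, edgeR's quasi-likelihood test with TMM scaling gave Log2 FC values of −1.12 for miR-92b (FDR 0.0037) and 0.91 for miR-32 (FDR 0.0328). It called 2.74% of the expressed miRNAs higher in sera and 2.19% higher in exosomes by the FDR, and 1.64% and 2.19% by both thresholds. Thus miR-92b passed both thresholds in edgeR and miR-32 the FDR alone, the opposite of limma. For miR-92a edgeR gave −0.84 (FDR 0.0501), and with the cow entered as a replicate block it gave −0.79 (FDR 2.3e-10). With the block, edgeR gave 0.92 for miR-32 (FDR 2.4e-05) and −1.11 for miR-92b (FDR 3.2e-13). That blocked fit called 55 of the 365 expressed miRNAs higher in sera and 24 higher in exosomes by the FDR. In limma, the same block left 3 degrees of freedom for each miRNA. How far the small FDR values of the blocked edgeR fit rest on a spread shared among miRNAs was not tested. With so few cows, their size was not read as strength of evidence. The directions of miR-92a, miR-92b and miR-32 were the same in limma and edgeR.

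The 2 libraries of a cow deviated together, so the cow was also entered as a replicate block. Limma with the block gave FDR values of 7.3e-05 for miR-92a, 1.6e-08 for miR-32 and 5.9e-10 for miR-92b, and it called 23.0% of the expressed miRNAs higher in sera and 3.29% higher in exosomes. In that fit 3 degrees of freedom remained for each miRNA, and the spread was taken from a trend shared by all miRNAs, with 1095 degrees of freedom in total. Without the trend, a choice made after seeing the values, limma with the block called 0.548% higher in sera and 0.822% higher in exosomes, and the FDR was 0.0785 for miR-32, 0.0759 for miR-92b and 0.120 for miR-92a. Over the 128 miRNAs with 10 or more reads in each library, the same fit without the trend gave FDR values of 1.7e-05 for miR-32, 4.2e-05 for miR-92b and 0.0013 for miR-92a. In limma, the blocked calls of miR-92a, miR-92b and miR-32 thus depended on how the spread was shared among miRNAs and on whether miRNAs with few reads were included. The FDR of miR-25 stayed above the threshold in each of these fits.

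**Figure D2:**
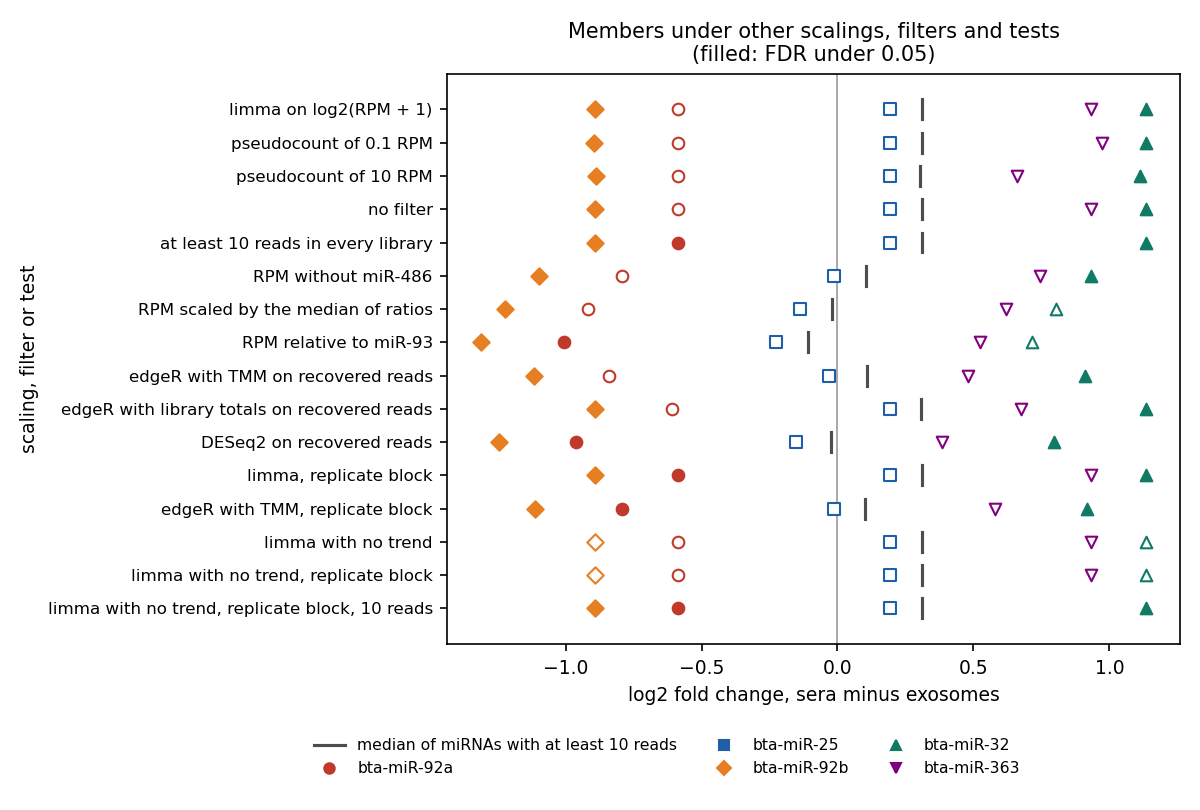
Log2 FC of each member (sera minus exosomes) under the scaling, filter or test named on the vertical axis, with filled symbols for an FDR under 0.05 and a black tick for the median of the miRNAs with 10 or more reads in each library. miR-92b and miR-92a lie left of 0 and miR-32 and miR-363 right of 0 in every line, while miR-25 lies between 0.19 and −0.23. miR-363 has no value where 10 or more reads in each library were required.

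Ratios of 2 members within a library do not depend on the total of the library. The ratio of miR-92b to miR-32 was 1.69, 1.51, 1.39 and 1.96 across cows 1 to 4 in sera and 4.72, 6.53, 8.96 and 7.00 in the exosomes. miR-92b was the higher of the pair in every library, and every exosome library stood above every sera library in this ratio. The log2 ratio averaged 0.70 ± 0.21 (SD, n = 4) in sera against 2.73 ± 0.38 in exosomes, which is −2.03 as sera minus exosomes. This difference was the largest among the 6 pairs of the 4 members with 10 or more reads in each library.

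The ratio of miR-92a to miR-25 was 3.32, 2.61, 3.50 and 2.94 across cows 1 to 4 in sera and 4.97, 4.77, 6.67 and 4.90 in the exosomes, with cow 3 apart from the others in exosomes. The ratio of miR-92a to miR-32 lay between 65.6 and 87.8 in sera and between 149 and 386 in exosomes. The ratio of miR-25 to miR-92b lay between 12.3 and 22.3 in sera and between 6.36 and 8.57 in exosomes. None of these 3 ratios overlapped between sera and exosomes. Relative to miR-25, both miR-92a and miR-92b were thus higher in every exosome library than in any sera library. The ratio of miR-25 to miR-32, 18.8 to 33.7 in sera and 30.0 to 58.0 in exosomes, overlapped.

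The ratio of miR-92a to miR-92b, the 2 members higher in exosomes in every cow, lay between 40.8 and 58.1 in sera and between 31.7 and 43.1 in exosomes and overlapped. It was higher in the sera of 4 of 4 cows. In all, 4 of the 10 pairs of members did not overlap, and these were 4 of the 6 pairs among the 4 members with 10 or more reads in each library. Of all pairs of the 128 miRNAs with 10 or more reads in each library, 22.1% did not overlap. The pairs of members share libraries and members and are not independent, and no test was made on them. The RPM of miR-92a and miR-92b lay apart toward exosomes, and that of miR-32 toward sera. Their ratios to miR-32 could therefore not overlap and are no separate result.

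**Figure D3:**
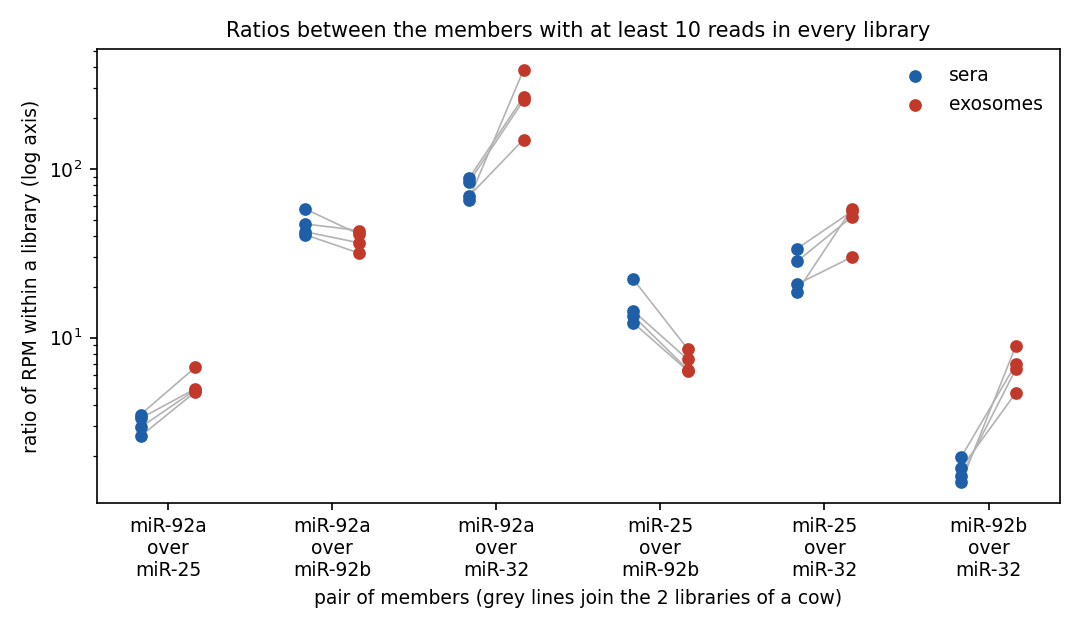
Ratio of the RPM of 2 members within each library on a log axis, for the 6 pairs of the 4 members with 10 or more reads in each library (sera in blue, exosomes in red, grey lines joining the 2 libraries of a cow). The ratio of miR-92b to miR-32 goes from 1.39 to 1.96 in sera to 4.72 to 8.96 in exosomes, while the ratios of miR-92a to miR-92b and of miR-25 to miR-32 overlap.

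The family as a whole took 6.49%, 8.05%, 7.31% and 7.12% of the miRNA reads across cows 1 to 4 in sera and 7.63%, 11.1%, 11.5% and 9.20% in the exosomes. The exosome library of each cow was above its sera library, but the groups overlapped, with the exosomes of cow 1 below the sera of cow 2. The widest counting interval was that of the exosomes of cow 1, from 7.42% to 7.84%. The family total followed miR-92a, which made 73.4 ± 2.14% of the family's RPM in sera and 81.8 ± 2.13% in exosomes. miR-25 made 24.0 ± 2.49% in sera and 15.6 ± 1.92% in exosomes. The share of miR-92b was 1.59 ± 0.26% in sera and 2.18 ± 0.27% in exosomes, and that of miR-32 was 0.978 ± 0.165% and 0.345 ± 0.137% (SD, n = 4 throughout). These 4 shares did not overlap between sera and exosomes, while that of miR-363 did. No rate over other miRNAs was computed for such shares, so nothing particular to the family was read from this. Since the shares add up to 100%, a higher share of miR-92a lowers that of the others, and no test was made on them.

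The miRNAs made with the members from shared transcripts were compared next, since mature miRNAs of 1 transcript are produced together. Of 11 cluster mates, 9 had a Log2 FC above 0 and 2 below. In the order of all expressed miRNAs from the highest in exosomes, the Log2 FC of limma was below 0 up to place 92 of 365. All later places were above 0, so most expressed miRNAs also lay on the sera side. Of the 9 mates, miR-106a, miR-18b and miR-20b rested on 5, 2 and 2 reads over all exosome libraries. With an FDR under 0.05 in limma 2 of 11 were higher in sera, beside 5.21% of all expressed miRNAs, none was higher in exosomes and none passed both thresholds. At an FDR under 0.05 edgeR called 0 of 11, while 3 of 11 had an unadjusted p under 0.05 in edgeR, beside 15.1% of all expressed miRNAs. With the cow as a replicate block, limma with the trend called 4 of 11 higher in sera, beside 23.0% of all, and 1 of 11 (miR-19a) higher in exosomes, beside 3.29%. Limma without the trend called 0 of 11, with 4 of 11 at an unadjusted p under 0.05, beside 29.6% of all expressed miRNAs. With so few mates, nothing particular to them was read from these counts. Their median Log2 FC was 0.72 in limma, beside 0.57 over all expressed miRNAs.

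miR-106b, a mate of miR-25 with the seed of miR-17, was at 1429.8, 2079.1, 1665.6 and 1511.7 RPM across cows 1 to 4 in sera and at 889.9, 896.7, 810.2 and 875.0 RPM in the exosomes. The groups did not overlap, and the Log2 FC was 0.93 (SE 0.19) with an FDR of 0.0111 in limma. miR-93, the other mate of miR-25, had a Log2 FC of 0.42 with an FDR of 0.196 in limma and overlapping groups. The ratio of miR-25 to miR-93 was 3.22 to 3.87 in sera and 3.79 to 4.76 in exosomes and overlapped, whereas the ratio of miR-106b to miR-93 was 0.332 to 0.379 in sera and 0.209 to 0.293 in exosomes and did not. Within the miR-25 transcript, miR-106b and miR-93 therefore did not keep the same ratio in sera and exosomes.

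Of the miR-17-92 mates, miR-17-5p, which carries the seed that gives the miR-17 family its name, was at 778.5, 830.3, 1318.1 and 684.1 RPM across cows 1 to 4 in sera and at 395.5, 343.1, 654.0 and 418.5 RPM in the exosomes. Its Log2 FC was 0.99 with an FDR of 0.0426 in limma. miR-20a, with the same seed, had a Log2 FC of 0.72 (FDR 0.170). miR-19a, another miRNA of the cluster, had a Log2 FC of −0.59 (FDR 0.196), and miR-19b one of −0.23 (FDR 0.509). The Log2 FC of miR-92a, −0.59, was thus near that of miR-19a and on the other side of 0 from miR-17-5p, although all are made from 1 transcript. miR-19b and miR-92a are also made from the miR-106a-363 cluster, and the table does not tell the copies apart.

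The 3 mates of miR-363 were rarely read. miR-106a had 25 reads in all sera and 5 in all exosomes, miR-18b had 23 and 2, and miR-20b had 21 and 2. Each was at 0 reads in 2 or 3 of the 4 exosome libraries. The ratios of the shares, sera over exosomes, were 1.43 for miR-106a (counting interval 0.538 to 4.79), 3.29 for miR-18b (0.814 to 28.8) and 3.01 for miR-20b (0.735 to 26.5). These intervals pool the reads of the 4 cows and leave out the spread between libraries. miR-18b and miR-20b were higher in the sera of 4 of 4 cows, and miR-106a in 3 of 4. In limma their FDR values were 0.157, 0.175 and 0.359, so no difference passed the threshold at this depth.

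**Figure D4:**
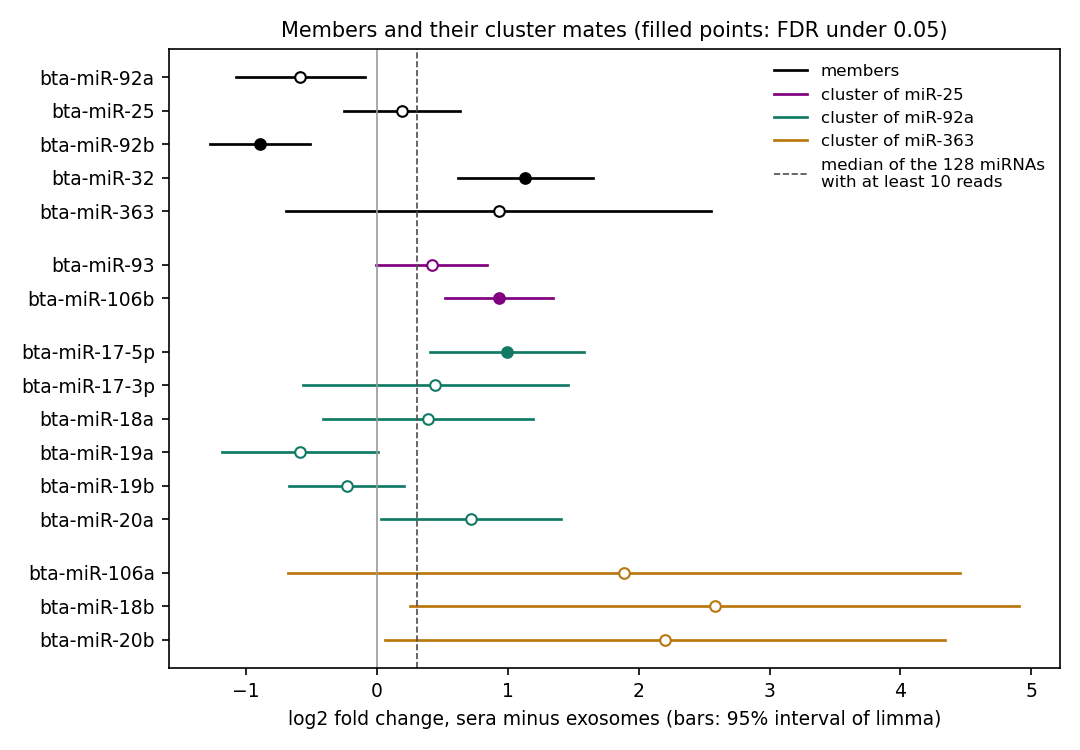
Log2 FC of limma (sera minus exosomes) with its 95% interval for the 5 members and their 11 cluster mates, with filled points for an FDR under 0.05 and a dashed line at the median of 0.31 over the 128 miRNAs with 10 or more reads in each library. miR-92b and miR-32 are the filled members, on opposite sides of 0, and miR-106b and miR-17-5p are the filled mates. The wide intervals of miR-363, miR-106a, miR-18b and miR-20b go with few reads.

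miRNAs of blood cells were compared beside the members, since miR-25 and miR-92a are also known from red cells. The 5 red cell miRNAs (miR-486, miR-451, miR-144, miR-16a and miR-16b) took between 18.0% and 26.8% of the sera reads and between 20.7% and 40.1% of the exosome reads, and none was at 0 in any library. They did not move together. In limma miR-16a (Log2 FC 1.44, FDR 0.0014) and miR-144 (1.10, FDR 0.0149) were higher in sera, and miR-16b had a Log2 FC of 0.65 with an FDR of 0.0882. By contrast, miR-486 had a Log2 FC of −0.73 with an FDR of 0.149 and miR-451 one of −0.00 with an FDR of 0.997. Thus 2 of 5 passed the FDR threshold toward sera, beside 5.21% of all expressed miRNAs, and 0 of 5 toward exosomes, beside 1.64%. With the cow as a replicate block and the trend, 3 of 5 passed toward sera (23.0% of all) and 1 of 5, miR-486, toward exosomes (3.29% of all). Without the trend 0 of 5 passed, with 4 of 5 at an unadjusted p under 0.05 in limma (29.6% of all). By Log2 FC in limma, miR-486 and miR-92a lay on the exosome side, and miR-144, miR-16a, miR-16b and miR-32 on the sera side. miR-451 differed little between the sample types.

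The 6 leukocyte and platelet miRNAs (miR-223, miR-150, miR-142-5p, miR-142-3p, miR-126-3p and miR-126-5p) summed to 4.68% to 5.26% in sera and 4.15% to 5.29% in exosomes, with none at 0. Of these, 1 of 6, miR-126-3p, passed the FDR threshold toward sera in limma (Log2 FC 0.80, FDR 0.0252), beside 5.21% of all expressed miRNAs. In edgeR with TMM 0 of 6 passed, with an FDR of 0.116 for miR-126-3p. In limma with the replicate block and the trend, 3 of 6 passed toward sera (23.0% of all expressed miRNAs). Without the trend 0 of 6 passed, and 3 of 6 had an unadjusted p under 0.05 in limma (29.6% of all). The liver miRNA miR-122 was at 13.5 to 108.4 RPM in sera and at 0 to 48.8 RPM in exosomes. The part of blood cells and liver in the differences of the members was not tested.

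Over the 8 libraries, the levels of the members fell into separate patterns. These correlations describe log2(RPM + 1) over 8 libraries, which share the 4 cows, the library totals and the split into sample types. The Pearson r was 0.858 between miR-92a and miR-92b, −0.931 between miR-92b and miR-32 and −0.897 between miR-92a and miR-32. That of miR-25 was −0.03 with miR-92a, 0.25 with miR-32 and −0.45 with miR-92b. miR-25 thus had no strong correlation with another member, while miR-92b and miR-32 ran in opposite directions.

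Among the 128 miRNAs with 10 or more reads in each library, those most like miR-25 were miR-451 (r = 0.869), miR-93 (0.839) and miR-375 (0.811). miR-451 had the same order of cows as miR-25 in sera and in exosomes, with cow 1 lowest and cow 2 highest. Those most like miR-92a were miR-328 (0.884), miR-486 (0.883) and miR-92b (0.858). Those most like miR-92b were miR-339b and miR-339a, which have identical values in every library (0.964), and miR-328 (0.955). miR-328 ranged from 63.6 to 136.0 RPM over the sera but from 456.5 to 751.7 RPM over the exosomes. Those most like miR-32 were miR-128 (0.940), miR-320a (0.937) and miR-26b (0.909). Their Log2 FC values in limma were 0.87, 0.92 and 1.07, with FDR values of 0.0115, 0.0111 and 0.0111. Limma called 5.21% of all expressed miRNAs higher in sera by the FDR. All miRNAs of this paragraph were picked for their r over these same libraries. That they resemble a member in direction or in order of cows follows at least in part from the choice and is no separate result.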

How the data were processed

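Small RNA was sequenced from 4 sera and 4 exosome libraries of the same 4 cows. Per the study's methods, low-quality reads were removed with CASAVA 1.8, adaptors were trimmed, and reads longer than 15 nt were aligned to the bovine miRNAs of miRBase (release 21) with sRNAbench, library by library. The authors deposited 1 table of RPM values per library, in which the miRNA reads are divided by the mapped reads of that library and scaled to a fixed total. How reads matching several miRNAs were shared is not given in the sources used here, and no member had values identical to those of another miRNA. In each library the values sum to the same total, so that 1 abundant miRNA moves the others. Whole reads were recovered from the RPM steps, with 100% of the values whole within 0.05 RPM.

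Sera were compared with exosomes by limma (lmFit and eBayes with a trend, two-sided) on log2(RPM + 1) over 365 expressed miRNAs, of 445 with reads. The Benjamini-Hochberg FDR was adjusted over all of them, with thresholds of 0.05 and a Log2 FC over 1 or under -1. The fit had 2 groups and no covariate, since the study's methods name edgeR and the thresholds but no covariate. The deposited unit is no count, so edgeR and DESeq2 on the recovered reads were alternatives. Log2 FC values of miRNAs with few reads depended on the pseudocount and the test. That of miR-363 was 0.93 in limma, 0.97 with a pseudocount of 0.1 RPM and 0.66 with 10 RPM. In edgeR with TMM it was 0.48. For miR-18b, miR-20b and miR-106a the values were 2.58, 2.20 and 1.89 in limma and 1.31, 1.27 and 0.41 in edgeR with TMM. There were 4 cows with 1 library per sample type. Without a block, the p-values set the difference against the spread between libraries of a sample type, as if all libraries came from different animals. With the replicate block, they set it against the spread of the differences within cows. In limma the spread of each miRNA was also drawn toward that of the other miRNAs. Deviations from the group means correlated between the 2 libraries of each cow (mean r = 0.806, range 0.740 to 0.860, over 128 miRNAs). Between different cows the mean was −0.244 (range −0.501 to 0.195). Deviations cancel out within a sample type, so that negative mean largely follows from the same-cow value and is no separate result. The study states that both libraries came from the same animals. No 2 libraries of a sample type agreed within counting noise.

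The members and lists were chosen with earlier results of these data known. The miRNAs named were the members, their cluster mates, fixed red cell, leukocyte, platelet and liver lists, and for each member with 10 or more reads in each library the 3 with the highest Pearson r. Alternatives were pseudocounts of 0.1 and 10 RPM, filters, scalings, other tests, the replicate block and each library left out. Limma, limma with the block and edgeR with TMM were run on simulated data with no cow effect. This could not check how the block handles the cow, and the other fits were not simulated. The fits used limma 3.58.1, DESeq2 1.42.0 and edgeR 4.0.16 under R 4.3.3, and the other steps pandas 2.3.3, SciPy 1.17.1 and matplotlib 3.10.9 under Python 3.11.15.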

Additional observations from a re-analysis of the deposited data

Results flagged for a closer look

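A sample far from the others of its group was looked for in 32 groups of 4 libraries with Dixon's test, which chance flags in about 1 of 20 groups. It was found in 2 groups. The log2 ratio of miR-92a to miR-25 in exosomes was highest in cow 3, at 2.74, with a gap of 0.876 of the group's range. The log2 ratio of miR-25 to miR-32 in exosomes was lowest in cow 1, at 4.91, with a gap of 0.836 of the range, and miR-32 rested on 25 reads in that library.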

How the results depend on the processing

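The direction of miR-32, miR-92a, miR-92b and miR-363 was the same under all alternatives, and that of miR-25, which passed no threshold, was not. The Log2 FC of miR-25 was 0.19 as reported, −0.011 without miR-486, −0.14 by the median of ratios, −0.23 relative to miR-93, −0.033 in edgeR with TMM, −0.15 in DESeq2 and −0.013 in edgeR with the replicate block. miR-32 missed an FDR of 0.05 by the median of ratios (0.81, FDR 0.0627), relative to miR-93 (0.72, FDR 0.355) and in limma with no trend, without the replicate block (1.13, FDR 0.0731) or with it (1.13, FDR 0.0785). miR-92b missed it in limma with no trend (−0.89, FDR 0.0930) and with no trend and the block (−0.89, FDR 0.0759). miR-92a passed it over miRNAs with 10 or more reads in each library (−0.59, FDR 0.0398), relative to miR-93 (−1.01, FDR 0.0333), in DESeq2 (−0.96, FDR 0.0025), in limma with the replicate block (−0.59, FDR 7.3e-05), in edgeR with it (−0.79, FDR 2.3e-10), and with the block, no trend and at least 10 reads (−0.59, FDR 0.0013). The fits with no trend were chosen after seeing the data. miR-363 gave no value where 10 reads in every library were required. The cause of these changes was not tested.

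Of all expressed miRNAs, 11 were called higher in sera and 5 in exosomes by both thresholds (68.75% of the calls in sera). The counts were 6 and 6 without miR-486 (50%), 4 and 6 by the median of ratios (40%), 2 and 8 relative to miR-93 (20%), 6 and 8 in edgeR with TMM (42.9%), 3 and 13 in DESeq2 (18.75%), 29 and 6 in limma with the replicate block (82.9%), 13 and 13 in edgeR with it (50%), 6 and 4 in limma with no trend, and 2 and 3 with no trend and the block. With each library left out in turn, the calls ranged from 7 (without the sera of cow 3) to 18 (without the exosomes of cow 3) in sera and from 3 (without the sera of cow 2 or 4) to 5 in exosomes. The Log2 FC then ranged from 0.08 to 0.30 for miR-25, 1.03 to 1.26 for miR-32, −0.71 to −0.49 for miR-92a, −0.93 to −0.82 for miR-92b and 0.53 to 1.39 for miR-363, with no call of a member gained or lost by the FDR. The pairs of members that did not overlap numbered 4 to 6 of 10, and all pairs 24.3% to 28.7%.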
